A study of Mus musculus with 6 samples.

Results

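The genes described here were 45 mouse genes of fibroblasts and of the extracellular matrix outside the collagens, taken by gene symbol from a table of 21776 genes measured in hearts. The choice used symbols only and no measured value. All 45 were in the table, and they fall by role into 7 groups, namely small leucine-rich proteoglycans (7 genes), elastic fibre and microfibril proteins (10), adhesive and matricellular glycoproteins (8), enzymes and chaperones of collagen processing and cross-linking (5), matrix proteases and their inhibitors (7), TGF-β ligands and a receptor (3), and fibroblast identity and secreted proteins (5).

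Cardiac fibroblasts build the matrix between the muscle cells. They secrete proteoglycans and glycoproteins that organise collagen fibrils and elastic fibres, lysyl oxidases cross-link the fibres, and metalloproteinases with their inhibitors set their turnover. TGF-β is stored in this matrix in a latent form bound to microfibrils and, once released, is a main signal for fibroblasts to make more of it, and an expanded matrix is a known feature of failing and dilated hearts.

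RNA of adult hearts from 3 *Trdn-as* KO and 3 WT mice was sequenced as 1 strand-specific total RNA library per heart. Cardiomyocytes make *Trdn-as*, a non-coding antisense RNA of the *Trdn* gene, whose protein triadin belongs to the calcium release complex. KO mice were homozygous for a polyadenylation cassette inserted by Cas9 into the first exon of *Trdn-as* in embryonic stem cells, with chimeras crossed back to C57BL/6. The insertion was carried in the germ line and was not limited to one cell type, although the series describes the loss as one in cardiomyocytes, where the RNA is made. The age in weeks and the sex of these hearts are not given in the sources used here, and neither is whether KO and WT mice were littermates, so p-values measure the spread between these hearts.

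Each value was a read count divided by the size factor of its library and rounded, called a normalised read count below. Values summed to between 3.13 and 3.25 M per library, estimated to be 2.59 to 3.62 M counted reads, and 3 reads corresponded to a value between 2.61 and 3.77. *Trdn-as* had values of 1, 0 and 1 in KO against 690, 773 and 688 in WT hearts, in keeping with the labels, and *Trdn* had 2489, 2381 and 2551 against 1541, 1541 and 1516. All 10 cardiomyocyte markers and all 10 fibroblast markers listed were detected above the filter, with *Ttn* between 73738 and 94044 in every heart, as the label heart asks for. In a whole heart, fewer cells of a type and less RNA per cell cannot be told apart. KO replicate 1 stood apart from the other hearts in the matrix genes, so counts are given below with and without it.

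No matrix or fibroblast gene passed an adjusted p of 0.05 between KO and WT hearts. Of the 45 genes 44 were tested, and their median log2 fold change was 0.00, against 0.00 over all 13753 genes tested, with 23 genes above 0, or 52.3% against 50.6% of all genes, and 21 below. The lowest adjusted p was 0.745, for *Podn* (limma, Benjamini-Hochberg over all genes tested). Over all genes 0.0291% passed. At an unadjusted p under 0.05 there were 5 of the 44 genes (limma), 11.4% against 5.74% of all genes, and by limma-voom there were also 5. All 5 had higher values in KO, against 2.94% of all genes in that direction, and 0 were lower, against 2.80% of all genes. Without the mean-variance trend in limma the count was 2, *Podn* and *Emilin1*, both higher in KO. The share of all genes was not counted by limma-voom or without the trend, so these counts have no background beside them. Values of KO and WT hearts did not overlap for 2 of the 44, *Podn* and *Emilin1*, which is 4.55% against 9.07% of all genes in either direction and 4.64% higher in KO.

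The intervals set how large a difference these hearts could have hidden. The 95% interval of the log2 fold change lay within a 1.5-fold change in either direction for 40 of the 44 genes, 90.9% against 74.4% of all genes tested. The 4 exceptions were *Podn*, *Fmod*, *Thbs4* and *Tcf21*. For *Podn* the interval ran from 0.13 to 0.59 on the log2 scale, for *Fmod* from -0.94 to 0.36, for *Thbs4* from -0.69 to 0.15 and for *Tcf21* from -0.14 to 0.62. The last 3 had mean values under 60 in both groups.

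**Figure D1:**
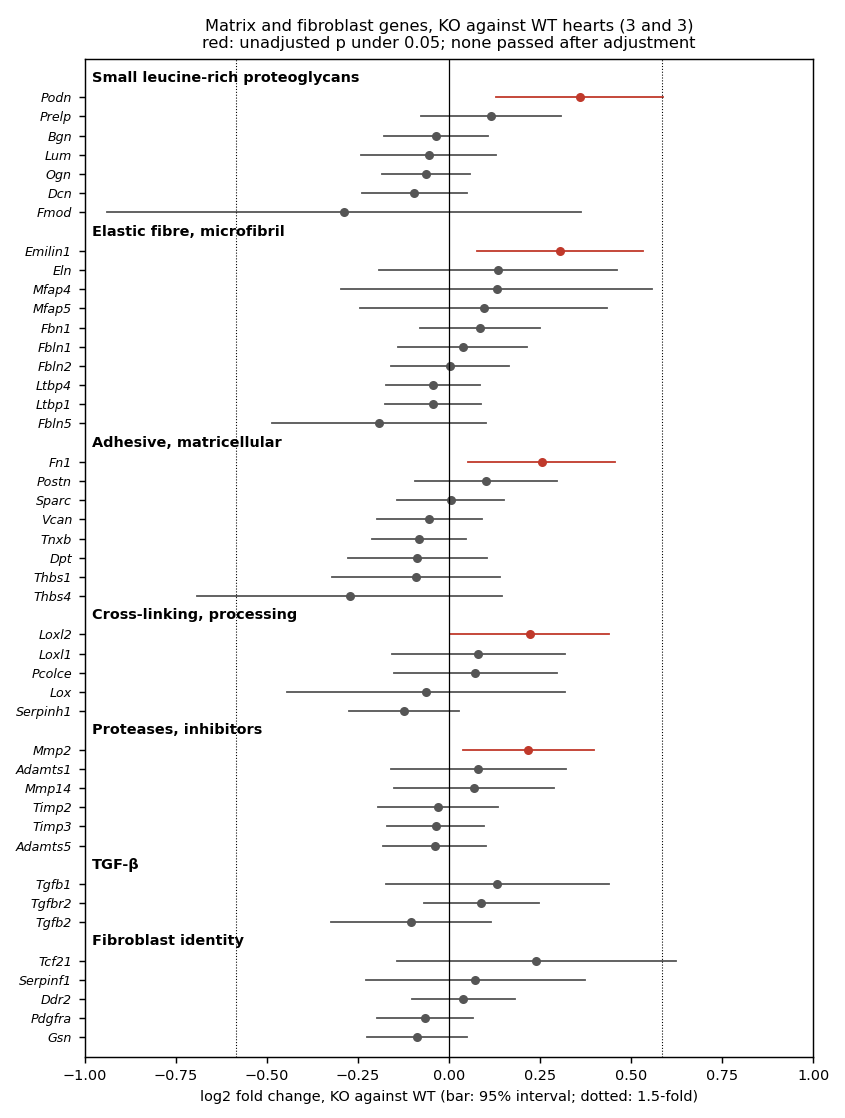
Log2 fold change of KO against WT hearts (x axis) for each of the 44 tested genes (y axis), grouped by role, where points are limma estimates from 3 KO and 3 WT hearts, bars are 95% intervals and dotted lines mark a 1.5-fold change. The 5 genes in red, at an unadjusted p under 0.05, are *Podn*, *Emilin1*, *Fn1*, *Loxl2* and *Mmp2*, and most other intervals straddle 0 and stay inside the dotted lines.

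*Podn* encodes podocan, a small leucine-rich proteoglycan that binds collagen. It is found at chromosome 4, 108014791 to 108096445, minus strand (GRCm38). Per heart it was counted at 150, 201 and 194 in KO against 140, 146 and 135 in WT hearts. The groups did not overlap, with KO replicate 1 just above the highest WT heart. The means were 182 ± 27.6 and 140 ± 5.51 (SD, n = 3 each), a log2 fold change of 0.36 ± 0.11 (SE) at an unadjusted p of 0.0039 and an adjusted p of 0.745 by limma.

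*Emilin1* (chromosome 5, 30913402 to 30921277, plus strand) encodes a glycoprotein at the surface of elastic fibres. Its normalised values were 137, 177 and 170 in KO against 133, 133 and 123 in WT hearts. Again no KO heart was as low as any WT heart, and KO replicate 1 was the KO heart closest to WT. The log2 fold change was 0.31 ± 0.11 (SE) at an unadjusted p of 0.0112 and an adjusted p of 0.807 by limma.

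Promoter sequences are shown for *Podn* and *Emilin1*, as the 2 genes whose groups did not overlap. Each is the 250 bases before a RefSeq start site (GRCm38.p6), 5′ to 3′ on the strand of the gene, with the letters GGGCGG, the GC box bound by Sp1, in capitals. The *Podn* stretch is chr4:108031955-108032204 on the minus strand, before a start site that lies 64491 bases inside the gene as listed in the table. The *Emilin1* stretch is chr5:30913536-30913785 on the plus strand, before a start site 384 bases inside the gene as listed. Both stretches therefore lie within the genes as listed in the table.
Podn: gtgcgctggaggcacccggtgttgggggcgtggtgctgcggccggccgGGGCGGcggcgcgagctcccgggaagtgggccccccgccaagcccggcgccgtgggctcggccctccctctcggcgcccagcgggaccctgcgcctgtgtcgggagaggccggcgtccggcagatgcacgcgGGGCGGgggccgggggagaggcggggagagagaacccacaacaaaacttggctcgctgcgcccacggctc
Emilin1: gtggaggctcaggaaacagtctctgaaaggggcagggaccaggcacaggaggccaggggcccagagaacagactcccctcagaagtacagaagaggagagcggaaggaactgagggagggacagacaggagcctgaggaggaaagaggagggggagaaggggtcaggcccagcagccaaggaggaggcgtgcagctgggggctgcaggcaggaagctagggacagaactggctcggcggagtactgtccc
*Podn* held GGGCGG 2 times and had a GC content of 78%, and *Emilin1* held it on neither strand and had 63.2%, against a median of 52.4% over all promoters. Of the 45 genes 33 had an entry in the promoter table, with 42 start sites, and 18 of the 33 held GGGCGG on either strand in at least 1 promoter. That was 22 of 42 promoters, against 32.7% of all 32851 promoters of the same length. The AP-1 letters TGANTCA, with N any base, were found in 1 of the 42 promoters, that of *Tnxb*, against 6.75% of all promoters. TATAAA was found in 5 of the 42, each of a different gene, against 12.4% of all promoters. A match describes these letters in this window and is not a measured binding site.

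*Fn1*, the gene of fibronectin, which cells deposit early when matrix is laid down, had the largest spread between KO hearts of the 5 genes. The gene is found at chromosome 1, 71585520 to 71653200, minus strand. Its values were 617, 926 and 797 in KO against 643, 636 and 656 in WT hearts. WT hearts agreed closely, with a mean of 645 ± 10.1, while KO hearts had a mean of 780 ± 155 (SD, n = 3 each), with KO replicate 1 below every WT heart. The log2 fold change was 0.25 ± 0.10 (SE) at an unadjusted p of 0.0162 and an adjusted p of 0.807 by limma.

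*Mmp2* (chromosome 8, 92827291 to 92853420, plus strand) encodes the secreted gelatinase that cleaves denatured collagen. Its values were 264, 323 and 310 in KO against 257, 270 and 242 in WT hearts. KO replicate 1 lay inside the WT range and the other KO hearts above it. The log2 fold change was 0.22 ± 0.09 (SE) at an unadjusted p of 0.0204 and an adjusted p of 0.841 by limma.

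*Loxl2* (chromosome 14, 69609068 to 69695834, plus strand) encodes a lysyl oxidase-like enzyme that cross-links collagen. Its values were 164, 206 and 223 in KO against 166, 168 and 170 in WT hearts. Here too KO replicate 1 lay below every WT heart and the other KO hearts above. The log2 fold change was 0.22 ± 0.10 (SE) at an unadjusted p of 0.0473 and an adjusted p of 0.851 by limma.

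**Figure D2:**
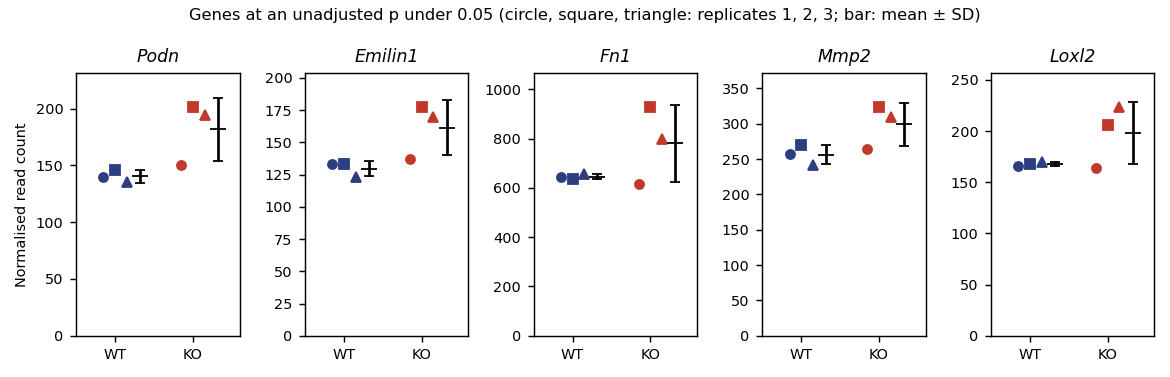
Normalised read counts (y axis, from 0) of *Podn*, *Emilin1*, *Fn1*, *Mmp2* and *Loxl2* in WT hearts (blue) and KO hearts (red), with 1 symbol per heart (circle, square and triangle for replicates 1, 2 and 3) and the mean ± SD of 3 hearts as a bar. In every panel the KO circle, replicate 1, lies near the WT hearts (617 against 636 to 656 for *Fn1*), and KO replicates 2 and 3 lie above all WT hearts.

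Among the small leucine-rich proteoglycans, which bind collagen fibrils and set their width, 2 of 7 genes had a higher and 5 a lower mean on the log2 scale in KO and the median log2 fold change was -0.06. *Dcn* (decorin) had 777, 829 and 838 in KO against 958, 875 and 785 in WT hearts, with overlapping groups and a log2 fold change of -0.10 ± 0.07 (SE). *Ogn* (osteoglycin), the densest of the group per exonic kilobase, was even across hearts, with 729, 755 and 729 in KO against 784, 751 and 777 in WT hearts. *Fmod* (fibromodulin) had the widest spread of all 44 genes, with 14, 49 and 26 in KO against 40, 29 and 29 in WT hearts. The lowest and the highest *Fmod* values were both in KO hearts, and its log2 fold change was -0.29 ± 0.31 (SE). *Lum* (lumican), *Bgn* (biglycan) and *Prelp* had log2 fold changes of -0.06, -0.04 and 0.12.

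Among the elastic fibre and microfibril genes 7 of 10 were higher and 3 lower in KO, with a median of 0.06. *Fbn1*, the gene of fibrillin-1, which forms the microfibril backbone, had 1129, 1531 and 1389 in KO against 1278, 1233 and 1275 in WT hearts. WT hearts lay within the range of the KO hearts, and the log2 fold change was 0.09 ± 0.08 (SE). *Ltbp4*, which tethers latent TGF-β to microfibrils, had 775, 812 and 789 in KO against 867, 820 and 764 in WT hearts, and the log2 fold change was -0.04 ± 0.06 (SE). *Eln*, the gene of elastin itself, showed the same shape as *Fbn1*, with 105, 193 and 148 in KO against 145, 115 and 136 in WT hearts. The remaining log2 fold changes were -0.19 for *Fbln5*, 0.13 for *Mfap4*, 0.10 for *Mfap5*, 0.04 for *Fbln1*, 0.00 for *Fbln2* and -0.04 for *Ltbp1*, and the groups overlapped for each.

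Of the adhesive and matricellular glycoproteins 3 of 8 were higher and 5 lower in KO, with a median of -0.07. *Sparc*, a collagen-binding glycoprotein and the densest of the group, had 801, 926 and 935 in KO against 933, 909 and 809 in WT hearts, and the log2 fold change was 0.01 ± 0.07 (SE). *Dpt* (dermatopontin), which binds decorin, had 188, 171 and 164 in KO against 191, 175 and 189 in WT hearts, and the log2 fold change was -0.09 ± 0.09 (SE). *Thbs4* (thrombospondin 4), known to rise in pressure-loaded hearts, had 37, 33 and 29 in KO against 44, 32 and 45 in WT hearts, and the log2 fold change was -0.27 ± 0.20 (SE). Groups overlapped for each of these genes. *Postn* (periostin), a marker of activated fibroblasts, had means of 456 ± 64.3 in KO and 424 ± 41.8 in WT hearts (SD, n = 3 each), and *Thbs1*, *Tnxb* (tenascin X) and *Vcan* (versican) had log2 fold changes of -0.09, -0.08 and -0.05.

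Of the genes of collagen processing and cross-linking 3 of 5 were higher and 2 lower, with a median of 0.07. *Serpinh1*, the collagen chaperone of the endoplasmic reticulum, had 404, 479 and 458 in KO against 496, 463 and 499 in WT hearts, and the log2 fold change was -0.12 ± 0.07 (SE). *Loxl1*, a cross-linking enzyme of elastic fibres, had 128, 166 and 141 in KO against 131, 127 and 152 in WT hearts, and the log2 fold change was 0.08 ± 0.11 (SE). *Lox*, the founding lysyl oxidase, and *Pcolce*, the enhancer of procollagen cleavage, had log2 fold changes of -0.06 and 0.07, with overlapping groups.

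The tested proteases and inhibitors divided evenly, with 3 of 6 higher, 3 lower and a median of 0.02. *Timp3*, an inhibitor that stays bound to the matrix, had 1196, 1282 and 1077 in KO against 1231, 1245 and 1163 in WT hearts, and the log2 fold change was -0.04 ± 0.06 (SE). *Timp2* had 358, 428 and 369 in KO against 409, 404 and 364 in WT hearts, and the log2 fold change was -0.03 ± 0.08 (SE). *Timp1*, the inhibitor that is induced in injured tissue, did not reach the filter and had 2, 7 and 3 in KO against 4, 4 and 5 in WT hearts. These are close to the value of 3 reads, so a small difference in *Timp1* was not detectable at this depth. *Mmp14*, the membrane-bound activator of MMP2, had a log2 fold change of 0.07, and the aggrecanases *Adamts1* and *Adamts5* had 0.08 and -0.04.

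Of the TGF-β genes, the ligand *Tgfb1* had a log2 fold change of 0.13 ± 0.15 (SE), and the median of the 3 genes was 0.09. The ligand *Tgfb2* had 132, 144 and 131 in KO against 152, 129 and 158 in WT hearts, and the log2 fold change was -0.10 ± 0.11 (SE). The receptor *Tgfbr2* had 401, 488 and 414 in KO against 406, 402 and 412 in WT hearts, where only KO replicate 2 lay well outside the other hearts. Its log2 fold change was 0.09 ± 0.08 (SE).

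The fibroblast identity genes had 3 of 5 higher, 2 lower and a median of 0.04. *Gsn* (gelsolin), an actin-severing protein abundant in heart fibroblasts, had 1276, 1378 and 1347 in KO against 1561, 1424 and 1280 in WT hearts, and the log2 fold change was -0.09 ± 0.07 (SE). *Ddr2*, a collagen receptor, had 488, 525 and 527 in KO against 527, 467 and 505 in WT hearts, and the log2 fold change was 0.04 ± 0.07 (SE). Values of both genes overlapped between the groups. *Pdgfra*, the growth factor receptor that marks heart fibroblasts, had means of 520 ± 15.1 in KO and 544 ± 20.8 in WT hearts, and *Tcf21*, the transcription factor of the fibroblast lineage, had 51.7 ± 11.1 and 43 ± 3.61 (SD, n = 3 each). *Serpinf1*, a secreted serpin, had a log2 fold change of 0.07. With 1 heart left out in turn, the medians of 5 of the 7 role groups took the opposite sign in at least 1 fit, those of the adhesive glycoproteins and the TGF-β genes being the exceptions.

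In these genes KO hearts spread more widely among themselves than WT hearts did. KO replicate 1 had the lowest of the 6 values in 22 of the 44 genes, 50% against 14.0% of all genes tested. It had the highest value in 0 of them, against 14.9% of all genes. WT replicate 2 also had the highest value in 0, against 11.5% of all genes. KO replicate 2 had the highest value in 19 genes, 43.2% against 17.3% of all genes. WT replicate 1 had the highest value in 12 genes, 27.3% against 20.1% of all genes. On the log2 scale the mean deviation of the 44 genes from their own means was -0.15, 0.14 and 0.04 for KO replicates 1 to 3, against 0.04, -0.05 and -0.03 for the WT hearts in the same order. The same quantity over all genes lay between -0.02 and 0.01 in every heart.

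The summed normalised read counts of the 45 genes were also lowest in KO replicate 1 and highest in KO replicate 2, with 16616, 19304 and 18234 in KO against 18637, 17783 and 17506 in WT hearts. This was 0.528% of all values in KO replicate 1 and between 0.558% and 0.616% in the other 5 hearts. The SD of the log2 values was larger in KO than in WT hearts for 33 of the 44 genes, 75% against 48.4% of all genes, with a median SD of 0.152 in KO and 0.0917 in WT. These shares are descriptions, since the genes share their hearts and are not independent.

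**Figure D3:**
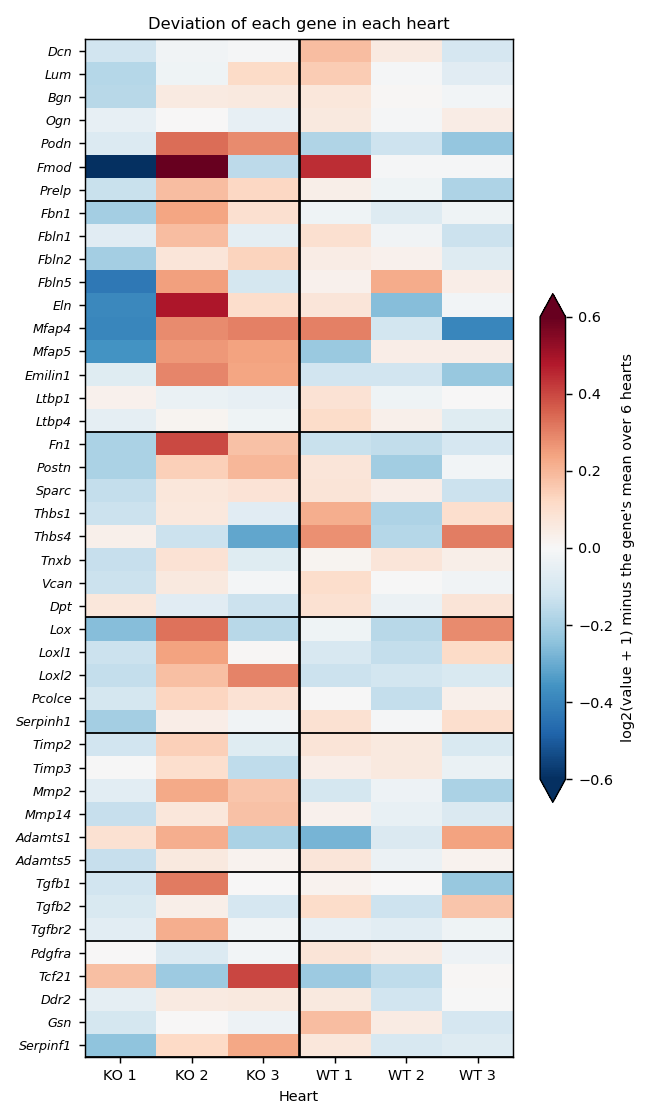
Deviation of log2(value + 1) from the mean of each gene over 6 hearts (colour, red above and blue below, in log2 units, with the scale ending at ± 0.6) for the 44 tested genes (rows, in role groups) in each heart (columns). The column of KO replicate 1 is blue in most rows (mean -0.15) and that of KO replicate 2 is red in most rows (mean 0.14), and the strongest colours are those of *Fmod* (-1.01 and 0.73 in these hearts).

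The deviation of KO replicate 1 was of different size in the role groups, given here with no test. In KO replicate 1 the mean deviation was -0.25 for the small leucine-rich proteoglycans, -0.21 for the elastic fibre genes, -0.17 for the cross-linking genes and -0.10 for the adhesive glycoproteins. The value of the proteoglycans rested in part on the sparse gene *Fmod*, and without it the other 6 averaged -0.12 in KO replicate 1 and 0.089 in KO replicate 2. For the proteases it was -0.06, for the TGF-β genes -0.09 and for the fibroblast identity genes -0.04. The identity genes were highest in KO replicate 3, at 0.13, and near their mean in KO replicate 2, at -0.02. Without *Tcf21*, the widest in spread, the other 4 were highest in WT replicate 1, at 0.10, and were at -0.10 in KO replicate 1 and 0.06 in KO replicate 3.

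Other lists moved with part of this pattern, given here with no test. The 10 tested genes of activated fibroblasts and fibrosis had a mean deviation of -0.26 in KO replicate 1 and 0.25 in KO replicate 2, and the 10 fibrillar and fibril-associated collagens of -0.16 and 0.14. The 8 macrophage and leukocyte markers had a mean deviation of -0.24 in KO replicate 1 and 0.23 in KO replicate 2, and their summed values ran from 1647 to 2119 in KO and from 1787 to 1884 in WT hearts. The 10 fibroblast markers, 7 of which are among the 45 genes, stayed between -0.07 and 0.07, and without *Tcf21* the other 9 ran from -0.09 in KO replicate 1 to 0.08 in WT replicate 1. Of the 10 there were 5 higher and 5 lower in KO, and their median was -0.02 on the log2 scale. The 8 endothelial markers all had higher means in KO, by a median of 0.03 on the log2 scale, with 0 at an unadjusted p under 0.05 (limma) and summed values from 4573 to 5215 in KO and 4576 to 5084 in WT hearts. The 8 smooth muscle and pericyte markers had 4 higher and 4 lower, with sums from 5444 to 5823 in KO and 5382 to 6255 in WT hearts.

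All 10 cardiomyocyte markers were lower in KO, 6 of them at an unadjusted p under 0.05 (limma). Of all genes tested, 2.80% were lower at such a p. The markers had a median of -0.16 on the log2 scale. Their sums ran from 94646 to 99140 in KO and from 98322 to 120730 in WT hearts, and WT replicate 1 had the highest sum. Their mean deviation was 0.23, 0.07 and -0.08 in WT replicates 1 to 3. WT replicate 3 thus lay inside the KO range of -0.11 to -0.04. These markers share their hearts and are not independent, so the 6 are not 6 separate results. Of the 4 endocardial markers *Vwf*, *Plvap* and *Npr3* were at an unadjusted p under 0.05 (limma) with log2 fold changes of 0.34, 0.46 and 0.19. Over all genes 2.94% were at such a p and higher in KO. The remaining marker, *Cytl1*, was at -0.10 with an unadjusted p of 0.74 (limma). The endocardial list summed to between 775 and 967 in KO and 639 and 773 in WT hearts. Blood markers went the other way, with a mean deviation of 0.37 in KO replicate 1 and -0.50 in KO replicate 2, though the WT hearts spread from -0.72 to 0.80, and summed to between 164 and 304 in KO and 151 and 423 in WT hearts. The 3 tested Schwann cell markers were also higher in KO replicate 1, at 0.17, than in KO replicate 2, at -0.28, with WT hearts between -0.03 and 0.24. The tendon and valve markers, which include *Fmod*, *Prelp* and *Thbs4*, summed to between 318 and 434 in KO and 340 and 412 in WT hearts. The tendon and valve list had a mean deviation of -0.38 in KO replicate 1 and 0.29 in KO replicate 2, and without *Fmod* of -0.22 and 0.17. The 7 atrial markers had a mean deviation of -0.22 in KO replicate 1, 0.53 in KO replicate 2 and 0.72 in WT replicate 3, but without *Bmp10*, counted at 0 to 8 in 5 hearts and 56 in WT replicate 3, the other 6 were at 0.07, 0.42 and 0.19. The atrial list summed to between 576 and 880 in KO and 619 and 840 in WT hearts. Adipocyte markers summed to 57 in KO replicate 2 and to between 14 and 23 in the other hearts. Epicardial markers summed to 30 in KO replicate 1 and to 67 in KO replicate 2, against 35 to 67 in WT hearts. Of these last 2 lists only *Cfd* and *Wt1* reached the filter. In these lists 0 markers in the table were at 0 in all 6 hearts. The part of these cells in the matrix values was not tested.

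**Figure D4:**
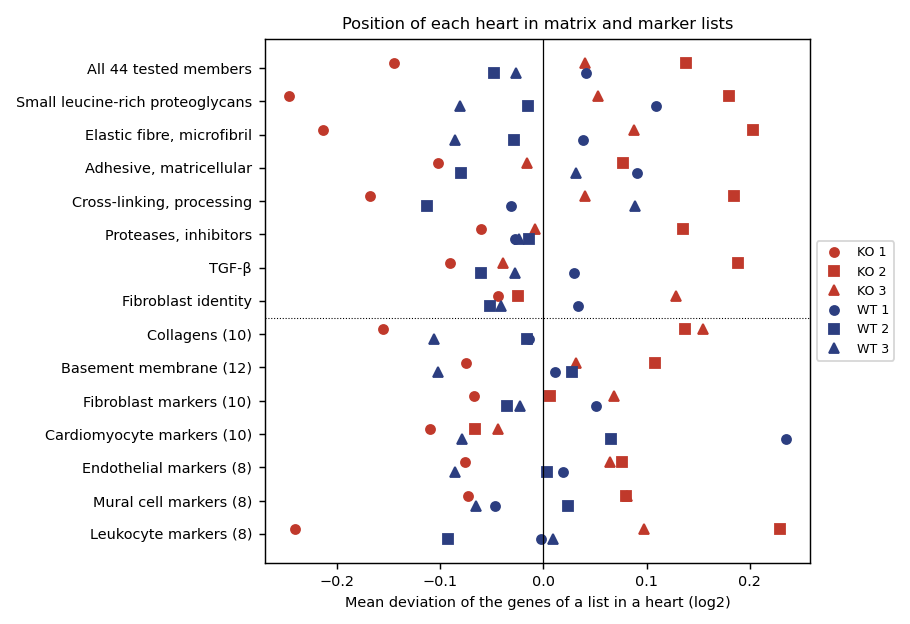
Mean deviation in log2 units (x axis) of the genes of each list in each heart, for all 44 tested genes and their role groups (above the dotted line) and for other matrix and cell marker lists with their number of genes (below it), with KO in red, WT in blue and a circle, square or triangle for replicates 1 to 3. KO replicate 1 is the leftmost symbol for all 44 genes (-0.15) and for the leukocyte markers (-0.24), while the fibroblast markers stay within -0.07 and 0.07 and the cardiomyocyte markers are spread by WT replicate 1 (0.23).

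Counts of genes depended on KO replicate 1. This heart was singled out because its values in these same genes were low, so leaving it out raises KO against WT for them. The counts without it are therefore descriptions and no separate test of these genes. KO replicate 2 had a mean deviation of 0.14, against -0.15 for KO replicate 1. Without KO replicate 1, 9 of the 44 genes had an unadjusted p under 0.05 (limma), all higher in KO. This was 20.5% against 4.44% of all genes in that direction, and 0 were lower, against 3.80%. Of these, 2 passed an adjusted p of 0.05 over all genes, 4.55% against 0.232% of all genes. *Fn1* had a log2 fold change of 0.41 ± 0.07 (SE) at an adjusted p of 0.0147, and *Podn* had 0.49 ± 0.10 (SE) at an adjusted p of 0.0488 (limma). The range of adjusted p (limma) across the 15 alternatives was 0.0147 to 0.999 for *Fn1*, and it was 0.0488 to 0.999 for *Podn*. The other 7 were *Emilin1* (0.42), *Eln* (0.36), *Loxl2* (0.35), *Mmp2* (0.30), *Postn* (0.22), *Prelp* (0.21) and *Fbn1* (0.21). Groups then did not overlap for 17 genes, with 2 KO hearts against 3 WT hearts, 38.6% against 22.6% of all genes. Of these 15 were higher in KO, 34.1% against 11.7% of all genes, and 2 were lower, 4.55% against 10.9%.

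Leaving out another heart gave other counts. Without KO replicate 2, 2 genes were higher at an unadjusted p under 0.05, *Podn* and *Tcf21*, and 4 were lower, *Fmod*, *Fbln5*, *Serpinh1* and *Tnxb* (limma), 4.55% and 9.09% against 2.35% and 2.30% of all genes. *Fmod* was then at -0.73 and *Fbln5* at -0.36 on the log2 scale. Without KO replicate 3, *Podn* alone remained under 0.05, 2.27% against 1.87% of all genes, and 0 were lower, against 1.82%. Without WT replicate 3, *Dcn* (-0.17) and *Gsn* (-0.16) were lower, and *Podn*, *Emilin1* and *Fn1* higher, at an unadjusted p under 0.05 (limma), against 4.40% of all genes lower and 4.21% higher. Without WT replicate 1 and without WT replicate 2 there were 3 genes each, *Podn*, *Emilin1* and *Mmp2*, all higher, 6.82% against 2.24% and 2.65% of all genes. In these fits 0 were lower, against 2.11% and 2.08%. *Podn* was under an unadjusted p of 0.05 in all 15 alternatives run, *Emilin1* in 13, *Mmp2* in 11, *Fn1* in 10 and *Loxl2* in 8.

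Other matrix genes were counted in the same way, in lists that hold none of the 45. Of 10 fibrillar and fibril-associated collagens 9 were higher in KO, by a median of 0.08 on the log2 scale, and 1 was at an unadjusted p under 0.05 (limma). This was *Col14a1*, which coats collagen fibrils, with 218, 306 and 312 in KO against 208, 237 and 208 in WT hearts, where KO replicate 1 lay inside the WT range. Without KO replicate 1 the count of collagens was 6 of 10, all higher in KO, against 4.44% of all genes in that direction. The collagens too were low in that heart, with a mean deviation of -0.16, so this count is a description as well. Of 12 basement membrane genes 7 were higher and 1, the laminin chain gene *Lama5*, was at an unadjusted p under 0.05 (limma), with a log2 fold change of 0.22 ± 0.07 (SE).

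Of 14 genes of TGF-β signalling and its immediate targets 8 were higher and 6 lower in KO, with a median of 0.03. *Ctgf*, a target of the pathway, had 250, 273 and 298 in KO against 214, 268 and 245 in WT hearts, an unadjusted p of 0.07 (limma).

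Of 14 genes of activated fibroblasts and fibrosis 10 were tested, with 4 higher, 6 lower, a median of -0.04 and 0 at an unadjusted p under 0.05 (limma), by limma-voom also 0. *Acta2*, the smooth muscle actin of myofibroblasts and vessel walls, had 247, 247 and 242 in KO against 267, 261 and 279 in WT hearts. Its groups did not overlap, with the WT values higher, and its log2 fold change of -0.13 ± 0.08 (SE) had an unadjusted p of 0.10 (limma). *Cthrc1*, *Cilp2*, *Spp1* and *Lrrc15* lay under the filter. Of 12 matrix receptors, mostly integrins, 7 were higher and 5 lower, with a median of 0.03 and 0 at an unadjusted p under 0.05 (limma), likewise 0 by limma-voom.

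Levels between genes were compared per exonic kilobase, as the mean over the 6 hearts of normalised reads divided by the length of all exons. *Gsn* was the densest of the 45 genes at 436 reads per kilobase, rank 42 of all genes in the table. *Ogn* followed at 294, *Sparc* at 234 and *Serpinh1* at 191. *Timp3* at 147 ± 8.89 and *Dcn* at 145 ± 11.4 (SD over 6 hearts) differed by less than their spread. The 5 genes at an unadjusted p under 0.05 were of middle density, *Mmp2* at 82.4, *Fn1* at 61.0, *Podn* at 37.7, *Loxl2* at 33.8 and *Emilin1* at 29.5 reads per kilobase. *Lox* at 11.4, *Thbs4* at 11.1, *Fmod* at 9.43 and *Timp1* at 4.69 were the sparsest.

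**Figure D5:**
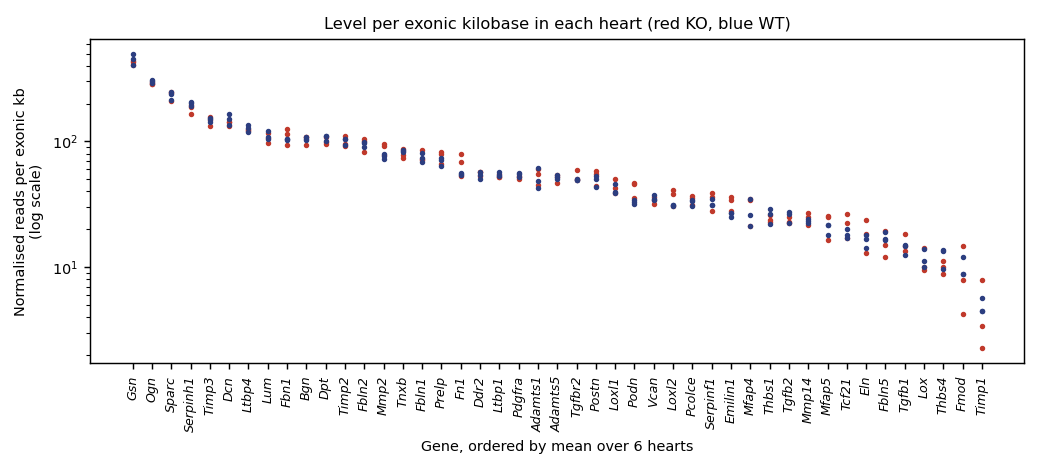
Normalised reads per exonic kilobase (y axis, log scale) of the 45 genes (x axis, ordered by their mean over 6 hearts), with 1 dot per heart, KO in red and WT in blue. Levels run from 436 for *Gsn* to 4.69 for *Timp1*, the dots of KO and WT hearts interleave for most genes, and the spread over hearts widens toward the sparse genes at the right.

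On chromosome 10, which carries *Trdn* and the inserted cassette, lie 4 of the 45 genes. *Tcf21* is 10.3 Mb from *Trdn*, *Timp3* 52.8 Mb, *Dcn* 64.0 Mb and *Lum* 64.1 Mb, and none of the 4 was at an unadjusted p under 0.05 (limma). Exons of *Fbn1* overlap those of the antisense gene *Gm9913* over 2442 bases and exons of *Timp3* those of *Syn3* over 1733 bases, on opposite strands, and the counting was stated to use strand. The sense overlap of *Pcolce* with *Fbxo24* covers 112 bases, whose reads were not counted for either gene.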

How the data were processed

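Strand-specific total RNA libraries of 3 KO and 3 WT hearts were read single end. Per the submitters' processing notes and the methods of the study, the authors trimmed reads with Trimmomatic 0.39, aligned them to GRCm38 with STAR 2.6.1d, removed duplicates with Picard 2.21.1 and also multi-mapping, ribosomal and mitochondrial reads, and counted exons by strand with featureCounts 1.6.5. The deposited value is a score, the count the authors divided by a DESeq2 1.18.1 size factor and, judging from the values, rounded. Genes with close copies can be under-counted.

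Size factors of 0.795 to 1.149 were estimated from the spacing of the values (on simulated data, 8 factors were recovered within 0.337%). The 3-read floor and all intervals cover counting error or the spread between hearts only. Genes with a mean of at least 10 were fitted as log2(value + 1) with limma 3.58.1 in R 4.3.3 (lmFit and trended eBayes, two-sided, Benjamini-Hochberg over all 13753 genes, 4 residual degrees of freedom). Fold changes are on that scale and understate low genes. On simulated data over 13748 genes of this comparison, 54 to 63% of 1.5-fold and 82 to 93% of 2-fold changes were called, with at most 7.32% of calls false. Each simulated set held 200 changed genes and the same dispersion for every gene. In the hearts 4 genes passed an adjusted p of 0.05. With so few changed genes the adjustment is stricter, so these shares can overstate what was detectable here. Exon lengths came from GENCODE M21, and promoters from RefSeq.

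Values in every heart are given for genes at an unadjusted p under 0.05, with no overlap, among the 2 densest of their group, or among the 5 largest fold changes. *Eln* and *Timp1*, and of the other lists *Ctgf* and *Acta2*, were added after their values were seen. Some results are not reported here. Members and lists were chosen with earlier results of these data known. The lists' *Ccn1* and *Ccn2* are *Cyr61* and *Ctgf* in the table. Alternatives were other scalings, filters and pseudocounts, limma-voom, no trend, a replicate block and leaving out each heart.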

Additional observations from a re-analysis of the deposited data

How the results depend on the processing

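Of 660 fold changes of the 44 genes under 15 alternatives, 32 had the opposite sign, 31 of them with 1 heart left out, and 24 genes kept their sign throughout. The lowest adjusted p of any of these genes in any fit was 0.0147 (limma), without KO replicate 1. Under cyclic loess *Timp3* was at 0.00888 and 2 basement membrane genes were at an unadjusted p under 0.05. Without the mean-variance trend there were 2 matrix and fibroblast genes, 2 of them higher in KO, 0 collagens, 0 basement membrane genes and 1 activated fibroblast gene. Other scalings, filters and the pseudocount of 0.1 moved no count of the 44 genes by over 1.5 times. Shares over all genes were counted only in the main fit and in those that left out 1 heart.

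Over the fits that each left out 1 heart, the genes at an unadjusted p under 0.05 ran from 1 to 9 (higher in KO from 1 to 9, lower from 0 to 4), those past an adjusted p of 0.05 from 0 to 2, and those without overlap from 2 to 17. Collagens ran from 0 to 6, basement membrane genes from 0 to 3, TGF-β signalling genes from 1 to 2, activated fibroblast genes from 0 to 2 and matrix receptors from 0 to 1. The median of the small leucine-rich proteoglycans ran from -0.074 to 0.037. Genes whose log2 fold change crossed 0 in these fits were *Adamts1* (-0.037 to 0.22), *Adamts5* (-0.078 to 0.020), *Bgn* (-0.074 to 0.037), *Ddr2* (-0.0080 to 0.079), *Eln* (-0.075 to 0.36), *Fbln1* (-0.047 to 0.094), *Fbln2* (-0.065 to 0.10), *Fbn1* (-0.011 to 0.21), *Fmod* (-0.73 to 0.14), *Lox* (-0.24 to 0.064), *Loxl1* (-0.020 to 0.17), *Ltbp4* (-0.090 to 0.00063), *Lum* (-0.13 to 0.016), *Mfap4* (-0.031 to 0.36), *Mfap5* (-0.010 to 0.30), *Mmp14* (-0.0029 to 0.16), *Serpinf1* (-0.025 to 0.21), *Sparc* (-0.057 to 0.077), *Timp2* (-0.11 to 0.020) and *Timp3* (-0.095 to 0.030). The causes of these shifts were not tested.

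The labels do not say that the replicate numbers are a pairing, and hearts were treated as unpaired. Deviations from group means of same-numbered hearts had correlations of 0.05, -0.07 and -0.03 over the genes, which are not independent. With 3 hearts a group these correlations cannot exclude a shared litter or preparation. In a replicate block fit, 5 of the 44 genes were at an unadjusted p under 0.05, as without it, with 2 TGF-β signalling genes and 1 activated fibroblast gene. The share over all genes was not counted in that fit. With 3 hearts a group and a median SE of 0.09 for these genes, differences much under 1.5-fold in single sparse genes could not be resolved.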
